A study of Mus musculus with 7 samples.

Results

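Selenoproteins carry selenocysteine, an amino acid with selenium in place of sulfur, at a TGA codon that would otherwise end translation. A dedicated tRNA, an RNA hairpin in the same messenger, the protein that binds that hairpin and a special elongation factor let the ribosome read the codon through. The kidney is a main site of selenium handling: its proximal tubule takes up selenoprotein P from the filtrate and secretes the plasma glutathione peroxidase. The genes described here are 31 named members, 22 that encode selenoproteins and 9 that encode other parts of the selenocysteine machinery or the receptor Lrp8. They were chosen by symbol from 45706 genes in the tables, and all 31 matched a single GENCODE M21 gene by that symbol. Txnrd1 and Dio2, a further pair of selenoprotein genes, are not members and are given beside them.

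Kidney RNA came from 7 male mice aged 6 months, all Slc7a9-/-, so without a subunit of the transporter that recovers cystine from urine, a model of cystinuria. In 4 of them L-ergothioneine, a sulfur-containing antioxidant from the diet, was given in the drinking water at 16 mg/kg/day, and the other 3 were untreated. Every kidney carried the same genotype, so no value here compares the model with wild-type tissue, and Slc7a9 itself had 103 to 166 counts in the ergothioneine libraries and 95 to 105 in the untreated ones. The labels give no litter, cage or day of collection, so p-values measure only the spread between these kidneys, and what part of Slc7a9 the allele removes is not given in the sources used here.

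Libraries held 17296632 to 19791575 counts with ergothioneine and 14843899 to 17793544 untreated. The 10 proximal tubule markers were all detected, with a summed level of 26410 to 30020 CPM (counts scaled to equal library size by TMM) in ergothioneine kidneys and 26950 to 29380 CPM in untreated ones. Of these markers 2 fell, the transporter genes Slc7a13 (-0.56 ± 0.09 (SE), edgeR adjusted p = 0.000967) and Slc13a3 (-0.31 ± 0.08, adjusted p = 0.0189), with every ergothioneine kidney below every untreated one, and 0 rose; their part in the results below was not tested. Untreated libraries 1 and 2 stood apart, with 12.2% and 16.2% of deposited TPM (the authors' length-scaled share of each library) in short non-coding RNA, against 37.5% to 48.5% in the ergothioneine libraries and 48.7% in untreated library 3. On log2(TPM + 1) the median tested gene stood at -0.31 in ergothioneine over untreated kidneys. Fold changes below therefore come from counts, and TPM serves to compare genes within a library. Bulk kidney cannot tell fewer cells of a type from less RNA per cell.

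The coding sequences show what makes a member a selenoprotein. In the main coding transcript of each gene (GENCODE M21, GRCm38), 22 of the 31 members held at least 1 in-frame TGA before the stop codon, and the annotation marks the same number of selenocysteines in all 22. The other 9 members, Sephs1, Secisbp2, Secisbp2l, Pstk, Sepsecs, Eefsec, Trnau1ap, Scly and Lrp8, held none. Windows of up to 15 coding bases on each side of the first TGA are printed for the 3 peroxidases tested, which hold most of the RNA or pass the test below, for Dio1, which had the largest log2 fold change of the members, and for both reductases, whose site lies at the far end. Capitals mark the selenocysteine codon.
Gpx1: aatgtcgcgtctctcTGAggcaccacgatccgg
Gpx3: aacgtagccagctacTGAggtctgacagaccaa
Gpx4: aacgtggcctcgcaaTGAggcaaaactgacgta
Dio1: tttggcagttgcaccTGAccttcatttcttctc
Txnrd2: actgtgactggttgcTGAggctaa
Txnrd3: actcagaaaggctgcTGAggctag

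In all 3 peroxidases and both reductases the codon was followed by G, and in Dio1 by C. In Gpx1 the codon is number 47 of 201 (chr9:108339451-108339453, plus strand, exon 1 of 2), in Gpx3 number 73 of 226 (chr11:54907256-54907258, plus strand, exon 2 of 5) and in Gpx4 number 73 of 197 (chr10:80054737-80054739, plus strand, exon 3 of 7). In Dio1 it is codon 126 of 257 (chr4:107297700-107297702, minus strand, exon 2 of 4). The reductases carry it next to last, at codon 526 of 527 in Txnrd2 and 614 of 615 in Txnrd3.

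Across the 22 selenoprotein genes 21 held a single TGA. Selenop held 10, of which only the first lies in the front part of the protein, at codon 59 of 380, and the other 9 between codons 259 and 377. Selenop delivers selenium to other organs, and its first and its last selenocysteine site are shown to contrast the lone site with the dense tail. In the last window the lower-case tga is the site at codon 375, and the stop codon taa ends the line.
Selenop, codon 59: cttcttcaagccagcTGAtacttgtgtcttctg
Selenop, codon 377: accaggaagtgaaaaTGAcattcaaactaa

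Of the 31 selenocysteine codons in these genes 13 were followed by G, 10 by C, 6 by A and 2 by T. In 14 of the 22 genes the first TGA lay more than 50 bases before the last exon junction. A stop codon at such a position can expose a messenger to nonsense-mediated decay when selenium is short. The position alone does not show that a messenger is decayed, and decay was not tested here. The distance was 105 bases in Gpx1, 240 in Gpx3, 342 in Gpx4 and 303 in Dio1, and in Txnrd3 the codon was in the last exon.

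The 28 tested members spanned levels of 0.34 to 19363 TPM. Gpx3, the peroxidase that the proximal tubule secretes into plasma, stood at 14498, 12863, 12753 and 9733 TPM in the 4 ergothioneine libraries and at 19363, 14924 and 11696 TPM in the 3 untreated ones. It ranked between 5 and 7 among 21519 protein-coding genes in every library and held 75.0% to 79.2% of the members' summed TPM in ergothioneine kidneys and 75.3% to 78.2% in untreated ones. Selenop followed with 1074 to 1340 TPM in ergothioneine and 1152 to 1789 TPM in untreated kidneys, at rank 26 to 34. Gpx1, the peroxidase of cytosol and mitochondria, had 807 to 1049 TPM with ergothioneine and 960 to 1550 TPM untreated, at rank 36 to 42. Gpx4, which reduces lipid hydroperoxides in membranes, had 549 to 617 TPM with ergothioneine and 440 to 711 TPM untreated, at rank 57 to 100. Gpx3, Selenop, Gpx1 and Gpx4 together made up 93.7% to 94.7% of the members' TPM with ergothioneine and 93.5% to 94.3% untreated.

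**Figure D1:**
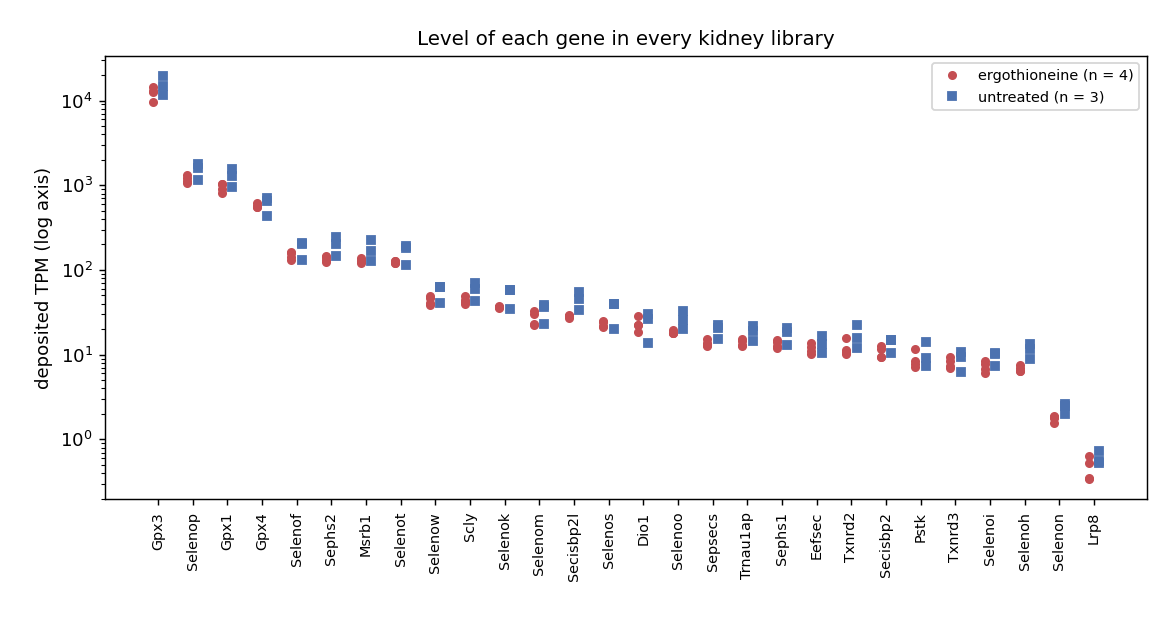
Deposited TPM (log axis) of the 28 members above 0 in every library, in order of median TPM, for ergothioneine (circles, n = 4) and untreated kidneys (squares, n = 3). Gpx3 (9733 to 19363 TPM) stands apart from Selenop (1074 to 1789 TPM), and Lrp8 is the lowest (0.34 to 0.73 TPM).

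Selenof had 159, 141, 162 and 131 TPM with ergothioneine and 203, 211 and 131 TPM untreated. Sephs2 had 144, 147, 133 and 124 TPM with ergothioneine and 242, 203 and 146 TPM untreated. Below the leading 4, Selenof, Sephs2, Msrb1 and Selenot had medians of 159, 146, 128 and 126 TPM over the 7 libraries. Within a library Selenof stood above Selenot, and Sephs2 above both Msrb1 and Selenot, in all 7, while Selenof and Sephs2 changed places between libraries. Selenow (46.1), Scly (43.9) and Selenok (36.6) stood next. The machinery apart from Sephs2 and Scly ran at low levels, with medians between 8.52 TPM for Pstk, which phosphorylates the seryl-tRNA, and 29.3 TPM for Secisbp2l. Sephs2, the selenophosphate synthetase that is itself a selenoprotein, stood 9.5 to 11.6 times above its paralogue Sephs1 in the ergothioneine libraries and 10.9 to 11.6 times above it in the untreated ones. Selenon (1.89 TPM) and Lrp8 (0.52 TPM), the selenoprotein P receptor of brain and testis, were the lowest of the members tested. Lrp2, which encodes the megalin receptor that takes up selenoprotein P in the proximal tubule, had 130834 to 150973 counts with ergothioneine and 106046 to 146089 untreated, and did not pass the test (log2 fold change -0.09 ± 0.09 (SE), edgeR adjusted p = 0.605).

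Gpx2, the peroxidase of the gut, and Selenov, known from testis, had 0 counts in all 7 libraries. Dio3, which inactivates thyroid hormone, had 0 to 4 counts. At this depth these 3 members were too low to be tested, and a count of 0 allows up to 3 counts a library.

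The question of the comparison is how ergothioneine changed kidney RNA. Of the 28 members tested 1 was higher (Gpx4), 1 was lower (Secisbp2l) and 26 did not pass (edgeR's quasi-likelihood test, Benjamini-Hochberg adjusted over 15399 genes, threshold 0.05). That is 7.14% of the members, against 7.16% of all genes tested, with 3.58% higher and 3.57% lower over all genes. Groups did not overlap in 3 members, or 10.7%, against 18.6% of all genes: 2 were higher in every ergothioneine kidney (9.46% of all genes were) and 1 was lower (9.11% of all genes). The median log2 fold change of the 28 was 0.03 and the median absolute one 0.09, beside 0.00 and 0.13 over all genes.

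In 23 of the 26 members that did not pass, the estimate with 2 standard errors either way stayed within 1.5-fold. The exceptions were Dio1, Selenoh and Lrp8. Dio1, Txnrd3 and Eefsec, the elongation factor for selenocysteine, were the 3 that had an unadjusted p under 0.05.

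**Figure D2:**
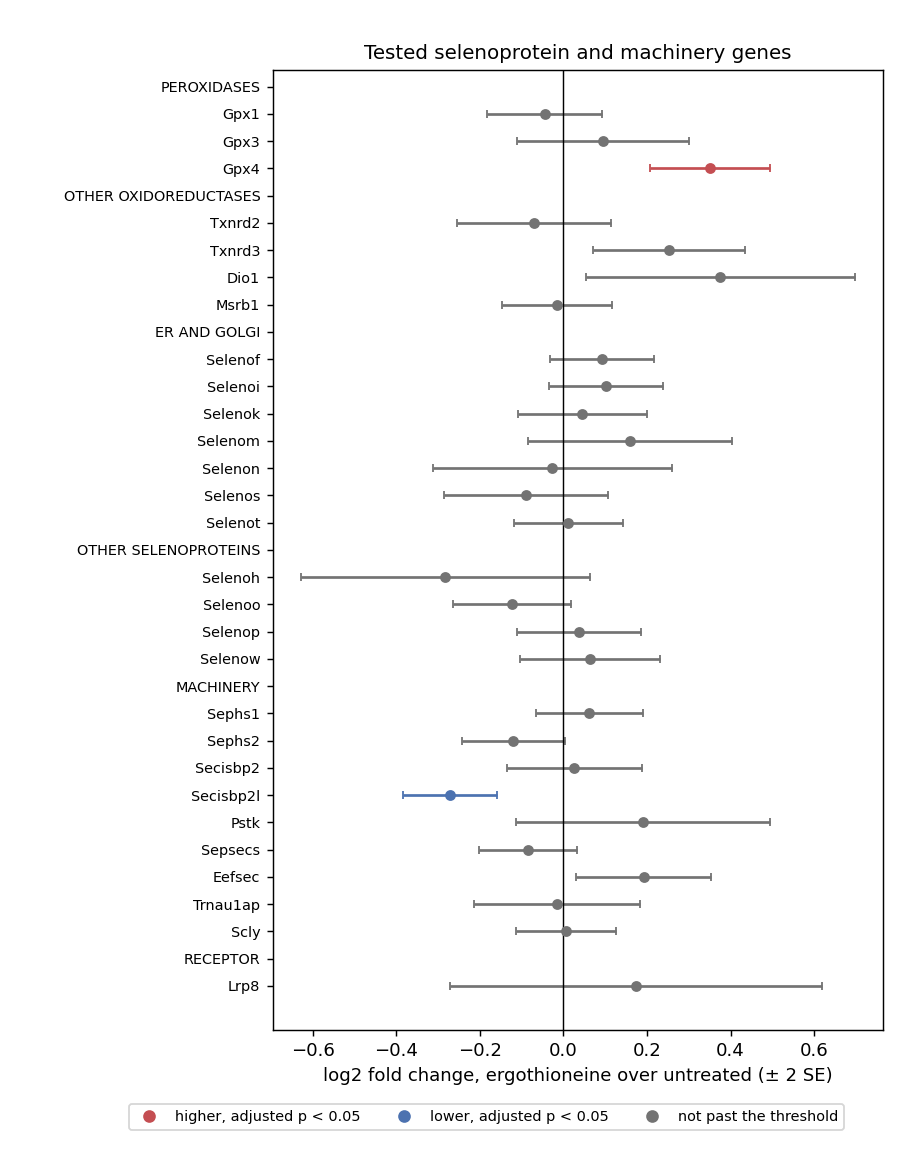
Log2 fold change of ergothioneine over untreated kidneys for the 28 tested members by role, with bars of 2 standard errors (edgeR on counts, n = 4 and 3). Gpx4 (0.35, but -0.035 on log2(TPM + 1)) and Secisbp2l (-0.27) passed the threshold, and 23 of the other 26 stay within 1.5-fold.

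Among the glutathione peroxidases Gpx4 alone passed. It had 394, 432, 464 and 434 CPM in ergothioneine kidneys and 309, 372 and 333 CPM in untreated ones. Every ergothioneine kidney was above every untreated one, the nearest pair being ergothioneine library 1 and untreated library 2. The means were 431 ± 28.9 CPM with ergothioneine (SD, n = 4) and 338 ± 32.1 CPM untreated (SD, n = 3), a log2 fold change of 0.35 ± 0.07 (SE, edgeR adjusted p = 0.00577), or 1.28-fold, while on log2(TPM + 1) the difference was -0.035 and on TPM rescaled with short non-coding genes removed 0.34 (limma adjusted p = 0.101). Library index numbers ran from 44 to 50 (ergothioneine 1, untreated 1 and 2) or from 14 to 23 (the other 4). With this index range as a block the log2 fold change was 0.32 (edgeR adjusted p = 0.028). Leaving out each library in turn kept the call, at 0.29 to 0.43 with adjusted p up to 0.0376, reached without untreated library 1.

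A ratio within a library does not depend on that scaling. Gpx4 stood at 0.533, 0.628, 0.599 and 0.681 of the Gpx1 TPM in ergothioneine libraries and at 0.416, 0.545 and 0.458 in untreated ones. The ranges meet only where ergothioneine library 1 falls under untreated library 2.

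Gpx1 and Gpx3 did not pass. Gpx1 had 752, 722, 799 and 676 CPM with ergothioneine and 808, 727 and 748 CPM untreated, with overlapping ranges (-0.04 ± 0.07 (SE), edgeR adjusted p = 0.783). Gpx3 had 20380, 19810, 19090 and 15450 CPM with ergothioneine and 18970, 15890 and 17680 CPM untreated. Its lowest and its highest value were both in ergothioneine kidneys (0.09 ± 0.10, adjusted p = 0.678), and 2 standard errors reach from -0.11 to 0.30.

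**Figure D3:**
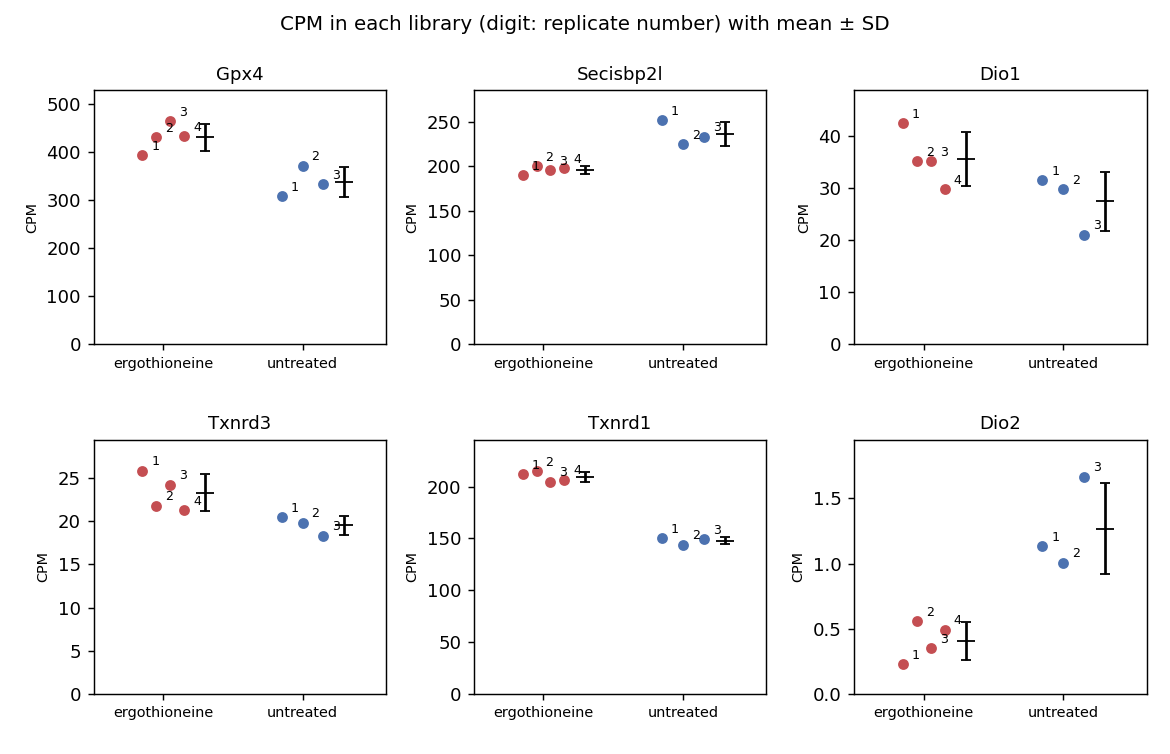
CPM (linear axis from 0) of Gpx4, Secisbp2l, Dio1, Txnrd3, Txnrd1 and Dio2 in each ergothioneine (left) and untreated (right) library, with the mean and SD beside each group (n = 4 and 3). The groups are apart for all but Dio1, where ergothioneine library 4 and untreated libraries 1 and 2 lie at 29.8 to 31.5 CPM.

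In the other oxidoreductases 0 of 4 tested members passed by edgeR, 0 by DESeq2 and 0 by limma-voom, and 2 had an unadjusted p under 0.05 (Dio1 and Txnrd3). Dio1, which turns thyroxine into the active hormone in liver and kidney, had 42.5, 35.2, 35.2 and 29.8 CPM with ergothioneine and 31.5, 29.8 and 21.0 CPM untreated. The groups overlapped, and Dio1 was the most variable member among untreated kidneys, with a coefficient of variation of 20.5% (14.6% among ergothioneine kidneys). Its log2 fold change was 0.38 ± 0.16 (SE, edgeR adjusted p = 0.237). With the range of library index numbers (44 to 50 against 14 to 23) as a block, the value was 0.57 and adjusted p = 0.00111, and over 19 alternatives adjusted p ran from 0.00111 to 0.956. Untreated library 3 bears on the size: without it the difference was 0.22, and with it as the only control 0.76.

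Txnrd3, a thioredoxin and glutathione reductase best known from testis, had 25.9, 21.8, 24.3 and 21.3 CPM with ergothioneine and 20.5, 19.8 and 18.3 CPM untreated. All 4 ergothioneine kidneys were above all 3 untreated ones, yet the difference missed the threshold (0.25 ± 0.09 (SE), edgeR adjusted p = 0.108). It passed with the index range as a block (0.33, adjusted p = 0.0457, in a range of 0.0457 to 0.729 over 19 alternatives). Txnrd2, the mitochondrial reductase, stood at 16.8 ± 0.655 CPM with ergothioneine (SD, n = 4) and 17.6 ± 1.46 CPM untreated (SD, n = 3) (log2 fold change -0.07 ± 0.09). Msrb1, which repairs oxidised methionine, was at 94.1 ± 1.42 CPM with ergothioneine (SD, n = 4) and 95.1 ± 9.90 CPM untreated (SD, n = 3; log2 fold change -0.01 ± 0.07).

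Of the 7 members of the endoplasmic reticulum and Golgi 0 passed by edgeR, DESeq2 or limma-voom and 0 had an unadjusted p under 0.05, with log2 fold changes from -0.09 to 0.16. Selenot, an oxidoreductase of the reticulum, had 394, 403, 410 and 416 CPM with ergothioneine and 388, 446 and 373 CPM untreated, with the ergothioneine values inside the untreated range (0.01 ± 0.07 (SE), edgeR adjusted p = 0.946). Selenof, which binds the folding sensor UGGT, stood at 202 ± 11.1 CPM with ergothioneine (SD, n = 4) and 190 ± 12.5 CPM untreated (SD, n = 3). Selenos and Selenok, which take part in the disposal of misfolded proteins, were at -0.09 ± 0.10 and 0.04 ± 0.08. Selenoi, which makes phosphatidylethanolamine, was at 0.10 ± 0.07, Selenom at 0.16 ± 0.12 and Selenon, whose loss causes muscle disease, at -0.03 ± 0.14.

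In other selenoproteins the secreted carrier Selenop had 2087, 2053, 2365 and 2020 CPM with ergothioneine and 2117, 2046 and 2063 CPM untreated. Ergothioneine library 3 was the highest and the other 6 lay within 2020 and 2117 CPM (0.04 ± 0.07 (SE), edgeR adjusted p = 0.836). Selenow, a small thioredoxin-like protein, was at 0.06 ± 0.08 and Selenoo, a mitochondrial enzyme that adds AMP to proteins, at -0.12 ± 0.07, though 1984 bases of Selenoo overlap Tubgcp6 on the opposite strand. The strand setting of the counting is not given in the sources used here, so reads of such pairs may not be separated. Selenoh, a nuclear redox protein, had only 54 to 67 counts with ergothioneine and 67 to 68 untreated. Its log2 fold change of -0.28 ± 0.17 did not pass, and 2 standard errors leave it between -0.63 and 0.06. On log2(TPM + 1) it was -0.63 (limma adjusted p = 0.0242), where the median gene stood at -0.31. Its locus also shares 1556 bases on the same strand with Gm28635, which had 0 counts.

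In the machinery 1 of 9 members passed, Secisbp2l, a paralogue of the hairpin-binding protein gene Secisbp2. It had 190, 200, 196 and 198 CPM with ergothioneine and 252, 225 and 233 CPM untreated. Every ergothioneine kidney was below every untreated one. The ergothioneine values were tightly grouped, with a coefficient of variation of 2.3% (5.8% untreated). The log2 fold change was -0.27 ± 0.06 (SE, edgeR adjusted p = 0.00606), or 0.83-fold. It was called without each library in turn (-0.31 to -0.22, adjusted p up to 0.0464, without untreated library 1), and missed the threshold on TPM rescaled with short non-coding genes removed (-0.23, limma adjusted p = 0.31). On log2(TPM + 1) it was -0.60, called among the filtered genes (adjusted p = 0.0373) and not among every gene above 0 (0.165).

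Secisbp2 itself, the factor needed for selenocysteine insertion, did not pass, at 29.5 ± 2.51 CPM with ergothioneine (SD, n = 4) and 29.1 ± 1.5 CPM untreated (SD, n = 3; log2 fold change 0.03 ± 0.08). The TPM of Secisbp2l over that of Secisbp2 was 2.34, 2.43, 3.00 and 2.93 in the ergothioneine libraries and 3.68, 3.01 and 3.26 in the untreated ones. Ergothioneine library 3 (3.00) and untreated library 2 (3.01) hardly differ in this ratio, so the groups are not clearly apart in it. In counts these libraries had 3347 and 3355 for Secisbp2l and 454 and 459 for Secisbp2.

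The enzymes that build selenocysteine on its tRNA did not pass. Sepsecs, which carries out the last step, stood at 74.8 ± 3.60 CPM with ergothioneine (SD, n = 4) and 79.4 ± 1.27 CPM untreated (SD, n = 3; log2 fold change -0.09 ± 0.06). Pstk was at 0.19 ± 0.15, but 23342 bases of its locus overlap Fgfr2 and 5831 overlap Ikzf5 on the opposite strand. Sephs2, the selenium donor synthetase, was at -0.12 ± 0.06 and Sephs1 at 0.06 ± 0.06. Eefsec had 35.3, 31.5, 33.6 and 29.7 CPM with ergothioneine and 30.0, 26.0 and 29.2 CPM untreated, overlapping by ergothioneine library 4 and untreated library 1 (0.19 ± 0.08 (SE), edgeR adjusted p = 0.178). Trnau1ap, which binds the selenocysteine tRNA, was at -0.02 ± 0.10 and Scly, which frees selenium from selenocysteine, at 0.01 ± 0.06. Lrp8 was at 0.17 ± 0.22 on 32 to 57 counts a library.

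**Figure D4:**
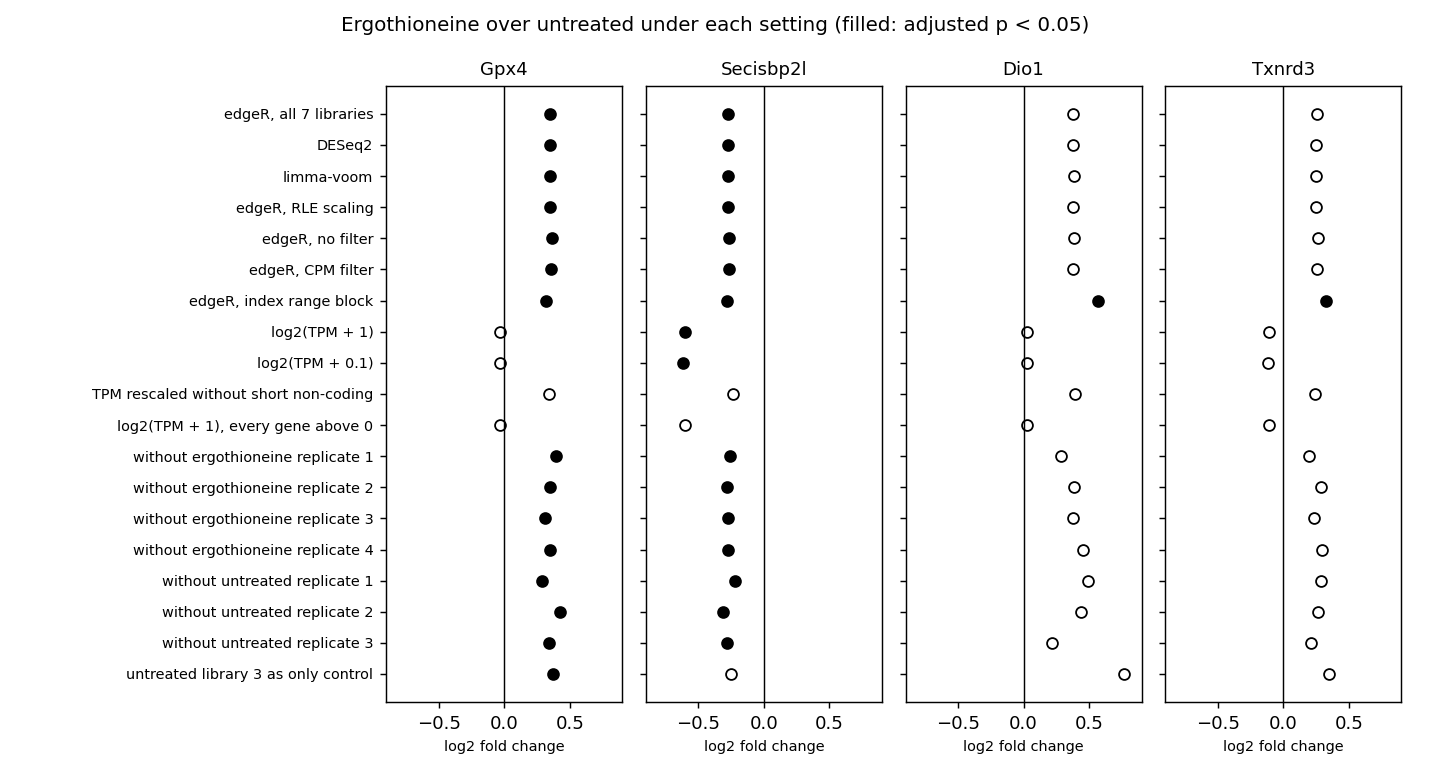
Log2 fold change of ergothioneine over untreated kidneys for Gpx4, Secisbp2l, Dio1 and Txnrd3 under other tools, scalings, filters and left-out libraries (filled, adjusted p under 0.05). Gpx4 and Txnrd3 turn slightly negative on unscaled TPM (-0.035 and -0.11), and Secisbp2l lies below 0 throughout.

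Both selenoprotein genes outside the list moved, in opposite directions. Txnrd1, the cytosolic thioredoxin reductase, had 212, 215, 205 and 207 CPM with ergothioneine and 150, 144 and 149 CPM untreated, with the groups far apart (0.50 ± 0.05 (SE), edgeR adjusted p = 1.53e-05; 0.13 on log2(TPM + 1)). Its next-to-last codon is a TGA like those of Txnrd2 and Txnrd3.
Txnrd1: ctccagtctggctgcTGAggttaa

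Dio2, which raises thyroid hormone inside brown fat and other cells, fell to 4, 11, 6 and 9 counts with ergothioneine, against 20, 15 and 26 counts untreated (-1.61 ± 0.38 (SE), edgeR adjusted p = 0.0151). The call was lost without ergothioneine library 1 (adjusted p = 0.0501) or untreated library 3 (0.0907), in a range of 0.007 to 0.305 over 18 alternatives. The 9 adipocyte markers, of which 7 were tested and all 7 fell, summed to 12.5 to 21.3 CPM in ergothioneine kidneys and 56.0 to 65.7 CPM in untreated ones. Of them Ucp1 and Cidea had 0 counts in ergothioneine library 1, and Cidea also in ergothioneine library 3. Their part in the Dio2 result was not tested.

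Other genes of the pathway were read in the same fit. Of 7 tested paralogues with cysteine in place of selenocysteine 1 rose and 0 fell, with a median of 0.12. This was Gpx6, a close relative of Gpx3, at 26.7, 32.0, 29.9 and 25.6 CPM with ergothioneine and 20.2, 21.3 and 18.5 CPM untreated (log2 fold change 0.51 ± 0.09, edgeR adjusted p = 0.00226; 0.12 on log2(TPM + 1)). Of 11 further factors of the selenocysteine tRNA and of TGA decoding, such as Sars and Rpl30, 0 passed by edgeR, 0 by DESeq2 and 0 by limma-voom, and 1 had an unadjusted p under 0.05 (Trit1), with a median of 0.01 and values from -0.30 to 0.11. Of 9 genes of selenium uptake and metabolism 0 passed by edgeR, 0 by DESeq2 and 1 by limma-voom (Inmt), and 2 had an unadjusted p under 0.05 (Inmt and Cbs), with a median of -0.09. The lowest value there was that of Inmt, a methyltransferase, at -0.91 ± 0.33 (adjusted p = 0.205).

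Among 10 electron donors and substrates 1 rose and 0 fell. The riser was Gsr, the glutathione reductase that serves the peroxidases, at 212 ± 14.5 CPM with ergothioneine (SD, n = 4) and 162 ± 7.66 CPM untreated (SD, n = 3; log2 fold change 0.38 ± 0.06, edgeR adjusted p = 0.00103; 0.052 on log2(TPM + 1)). The thioredoxins Txn1 and Txn2, the substrates of the reductases, were at 0.01 ± 0.06 and 0.08 ± 0.06.

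Of 12 tested thyroid hormone genes 1 rose and 1 fell, with a median of -0.15, while 7.16% of all genes tested passed. The log2 fold change was negative in 10 and positive in 2. By DESeq2 3 passed and by limma-voom 2, and 6 had an unadjusted p under 0.05. The receptor gene Thra was at 51.7 ± 2.87 CPM with ergothioneine (SD, n = 4) and 42.9 ± 2.55 CPM untreated (SD, n = 3; log2 fold change 0.27 ± 0.07, edgeR adjusted p = 0.0235). Thra turned to -0.092 on log2(TPM + 1) and lost its call without ergothioneine library 1, 2 or 4 or untreated library 1 or 2 (adjusted p up to 0.0883). Thrsp, a lipogenic target of the hormone that fat also expresses, fell to 2.00 ± 0.681 CPM with ergothioneine (SD, n = 4), against 6.31 ± 0.814 CPM untreated (SD, n = 3; -1.65 ± 0.22, adjusted p = 0.000198). The adipocyte sums given above moved in the same direction, and their part in this was not tested.

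Of 13 tested partners of the selenoproteins of the endoplasmic reticulum 0 rose and 2 fell, with a median of -0.03. Syvn1 and Sel1l, the ligase and its adaptor in the disposal of misfolded proteins, were at 42.9 ± 2.13 and 149 ± 6.29 CPM with ergothioneine (SD, n = 4) and at 58.1 ± 9.18 and 175 ± 10.2 CPM untreated (SD, n = 3). Their log2 fold changes were -0.44 ± 0.09 and -0.24 ± 0.06 (edgeR adjusted p = 0.00982 and 0.0201). Sel1l lost its call without ergothioneine library 1 or 2 or untreated library 2 or 3 (adjusted p up to 0.0802).

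Some markers of other nephron segments also differed between the groups. The thick ascending limb and distal tubule summed to 5760 to 6573 CPM over 8 markers with ergothioneine and 5200 to 5586 CPM untreated. By edgeR only Slc12a1 passed there (higher), and 7 markers did not. Among these 7, Calb1 had the largest log2 fold change of the list, 0.86 ± 0.19 (SE, edgeR adjusted p = 0.0552). Every ergothioneine kidney was above every untreated one in Calb1. By DESeq2 2 of the 8 markers passed, and by limma-voom 2 (Slc12a1 and Calb1). The log2 fold change was positive in 7 of the 8 and negative in 1. The collecting duct summed to 375 to 432 CPM over 9 markers with ergothioneine and 327 to 350 CPM untreated. Atp6v1g3, Slc4a1 and Slc26a4 passed there (all higher), and 6 markers did not. The sums of 5 podocyte markers (425 to 497 CPM with ergothioneine and 391 to 443 CPM untreated), 6 endothelial markers (up to 327 CPM with ergothioneine and up to 318 CPM untreated) and 9 leukocyte markers (165 to 227 CPM with ergothioneine and 223 to 232 CPM untreated) overlapped. No marker of these lists was at 0 in all libraries. Their part in the Gpx4 and Secisbp2l results was not tested.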

How the data were processed

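Per the labels' protocols, total RNA of frozen kidney was treated with Ribo-Zero Plus and made into libraries with a stranded kit. Per the submitters' processing notes, the tools included STAR 2.7.10a, RSEM 1.3.1 and Salmon 1.10.1, and the builds were GRCm38 and mm10, with no role or order. The authors deposited expected counts and TPM for 45706 genes. Of the deposited expected count values 3.61% were not whole, none of them in a member. The test was edgeR's (4.0.16, R 4.3.3) robust quasi-likelihood F test on rounded counts after filterByExpr and TMM, which left 15399 genes. SE is the log2 fold change over the square root of F, with a median of 0.11 over these genes. Alternatives used DESeq2 1.42.0 and limma 3.58.1. In data simulated for this comparison on 15399 genes, the test recovered 26.7% of genes changed 1.25-fold, a size near that of the calls made here, while recovery reached 58.7% at 1.5-fold and 81.3% at 2-fold. Chi-square over degrees of freedom between libraries of a group was 7.98 to 27.6, so none was counted as a copy. Members and lists were chosen with earlier results of these data known. All members were named, and genes of the other lists by passing the threshold. Lrp2, Inmt, Cbs, Trit1, Txn1, Txn2, Sars, Rpl30 and Calb1 were named after their values were seen. Selenocysteine codons were read from GENCODE M21 transcripts, in place of protein sequences. The floor of 3 counts covers counting error only.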

Additional observations from a re-analysis of the deposited data

Results flagged for a closer look

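In ergothioneine library 1 Selenon stood at 5.34 CPM, apart from the other 3 ergothioneine libraries at 6.84 to 6.93 CPM. The gap was 0.94 of the range of these 4 values, above Dixon's 95% critical value. It was the only one of the 28 tested members with such a library, and chance marks about 1 in 20.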

How the results depend on the processing

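Gpx4 alone was higher and Secisbp2l alone lower with DESeq2, limma-voom, RLE scaling, no filter, a CPM filter and each library left out. On log2(TPM + 1), log2(TPM + 0.1), log2(TPM + 1) over every gene above 0 and TPM rescaled with short non-coding genes removed 0 members were higher, and 2, 2, 0 and 0 were lower. With the index range as a block 3 were higher. Against untreated library 3 alone, a choice made after seeing the data, 0 were lower, though Secisbp2l stood at -0.25 (adjusted p = 0.0754), against -0.27 with all libraries. There the spread comes from the ergothioneine libraries only, and the lone control is assumed to vary like them. Gpx4 was -0.035 on all 3 unscaled TPM settings, and Thra -0.092, -0.095 and -0.092. The 1102 genes called in all became 692 to 1103 without single libraries, 556 against untreated library 3 alone, 280 on rescaled TPM, 64 on TPM of every gene and 1741 at an adjusted p under 0.1. On log2(TPM + 1) 54 were higher and 1484 lower, against 552 and 550 on counts. With the replicate number as a block (replicates 1 to 3) 2 members were higher, Gpx4 and Dio1 (0.47, adjusted p = 0.013), 1 was lower and Thra lost its call (0.24, adjusted p = 0.119), while all genes called came to 806. Deviations of same-numbered libraries correlated at 0.0452, -0.0827 and -0.0023, so the number gave no pairing. Depth limits Dio3, Gpx2 and Selenov, which could not be tested.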
